A study of Homo sapiens with 12 samples.

Results

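The peroxiredoxins and the thioredoxin system are described here by 10 genes, namely PRDX1, PRDX2, PRDX3, PRDX4, PRDX5 and PRDX6, the thioredoxin gene TXN, the thioredoxin reductase genes TXNRD1 and TXNRD2, and the sulfiredoxin gene SRXN1. They were taken by gene name from the 58735 genes in the count and FPKM tables, and each name was found once. The RNA came from human lens epithelial cells (LECs) of the immortalized line HLE-B3 that were wild type (WT) or carried a CRISPR/Cas9 knockout of the autophagy gene ATG7 (labelled Atg7KO, here ATG7 KO). Cells of each genotype were untreated (labelled 0 h) or treated with 200 μM H2O2 for 12 h, with 3 replicates in each of the 4 groups. The KO cells were picked as single clones after puromycin selection, and the study calls the replicates biological, but no source used here says which clones were sequenced or whether replicates were separate cultures. If they were not, p values measure the spread between these libraries only. Loss of ATG7 and other differences that came with selecting and picking clones cannot be told apart. A difference between genotypes below thus means one between the KO and WT cells sequenced. The untreated cells carry the label 0 h, while the treatment protocol gives 12 h with or without H2O2, so whether they were cultured for the same 12 h is not settled by the labels. If they were not, H2O2 and time in culture cannot be told apart.

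Peroxiredoxins are abundant thiol enzymes that reduce H2O2 and other peroxides with a cysteine of the active site. For most of them the oxidized enzyme is reduced again by thioredoxin, and thioredoxin is in turn reduced by a thioredoxin reductase, a selenocysteine enzyme that uses NADPH. When peroxide oxidizes the cysteine of some peroxiredoxins too far, sulfiredoxin repairs it with ATP. PRDX1, PRDX2 and PRDX6 act mainly in the cytosol, PRDX3 in mitochondria, PRDX4 in the endoplasmic reticulum, and PRDX5 in several compartments. TXN and TXNRD1 form the cytosolic chain and TXNRD2 serves mitochondria. TXNRD1, SRXN1, TXN and PRDX1 are textbook targets of Nrf2, a transcription factor that binds antioxidant response elements when cells are oxidized. LECs face peroxide from the aqueous humor, and oxidation of lens proteins is a hallmark of cataract.

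Between 15602183 and 17659496 reads per library fell on genes. Across genes, replicate libraries had a mean Pearson r of 0.991 or 0.992 in 3 of the groups. In the fourth, untreated ATG7 KO, replicate 1 had a mean r of 0.974 and the other two 0.983, and the deviation of replicate 1 from its group correlated with log2 gene length (r = -0.232 across genes, which are not independent). Replicate 1 lay above both other replicates for 8 of the 10 genes and below both for TXNRD1 and SRXN1, so the results of the 10 genes that use it are given with and without it. ATG7 mRNA was present in all libraries (260 to 561 reads) and was not lower in those labelled ATG7 KO, at 0.15 on the log2 scale after H2O2 (adjusted p = 0.135) and 0.47 without (adjusted p = 0.0348, and 0.43 with adjusted p = 6.02e-06 when replicate 1 was left out), so the counts cannot check the genotype label. The 6 lens epithelial markers summed to 0.716 to 3.09 FPKM, with CRYAB at most at 1.98 FPKM, PAX6 at 1.35 FPKM and PITX3 at 0.374 FPKM, and with FOXE3, CRYAA and CDH1 at or near 0 (at most 0.0893 FPKM). The 5 lens fibre markers summed to 1.28 to 2.60 FPKM, with LIM2 at 0. The 5 fibroblast markers summed to 649 to 682 FPKM in untreated and 292 to 309 FPKM in treated WT cells, and to 373 to 527 and 258 to 267 FPKM in ATG7 KO cells. Of these COL1A1 was at 239 to 645 FPKM and THY1 at 14.7 to 27.3 FPKM, with COL3A1 at or near 0. The 3 immune markers summed to 0.440 to 2.12 FPKM, most of it CD14, with PTPRC and CD3E at or near 0, and the endothelial markers PECAM1 and CDH5 to 0.126 to 0.561 FPKM. The part of these markers in the results was not tested. In bulk RNA, fewer cells of a kind and less RNA per cell cannot be told apart.

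In untreated WT cells the 10 genes spanned about 2 orders of FPKM, a read count scaled by gene length and library size. TXN was the most abundant at 210 ± 10.9 FPKM (SD, n = 3), followed by PRDX1 at 185 ± 9.53 FPKM, TXNRD1 at 129.6 ± 4.03 FPKM and PRDX5 at 101 ± 7.82 FPKM. The ranges of these neighbours in the order did not overlap. PRDX4 at 62.6 ± 3.69 FPKM and PRDX6 at 61.1 ± 1.66 FPKM overlapped, and PRDX2 at 46.4 ± 0.633 FPKM and PRDX3 at 34.5 ± 1.63 FPKM followed. The mitochondrial reductase and the repair enzyme were far lower, TXNRD2 at 2.15 ± 0.0882 FPKM and SRXN1 at 1.80 ± 0.144 FPKM. SRXN1 rested on 82 to 93 reads per library in this group and TXNRD1 on 15453 to 15569, so counting error weighs most on SRXN1.

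**Figure D1:**
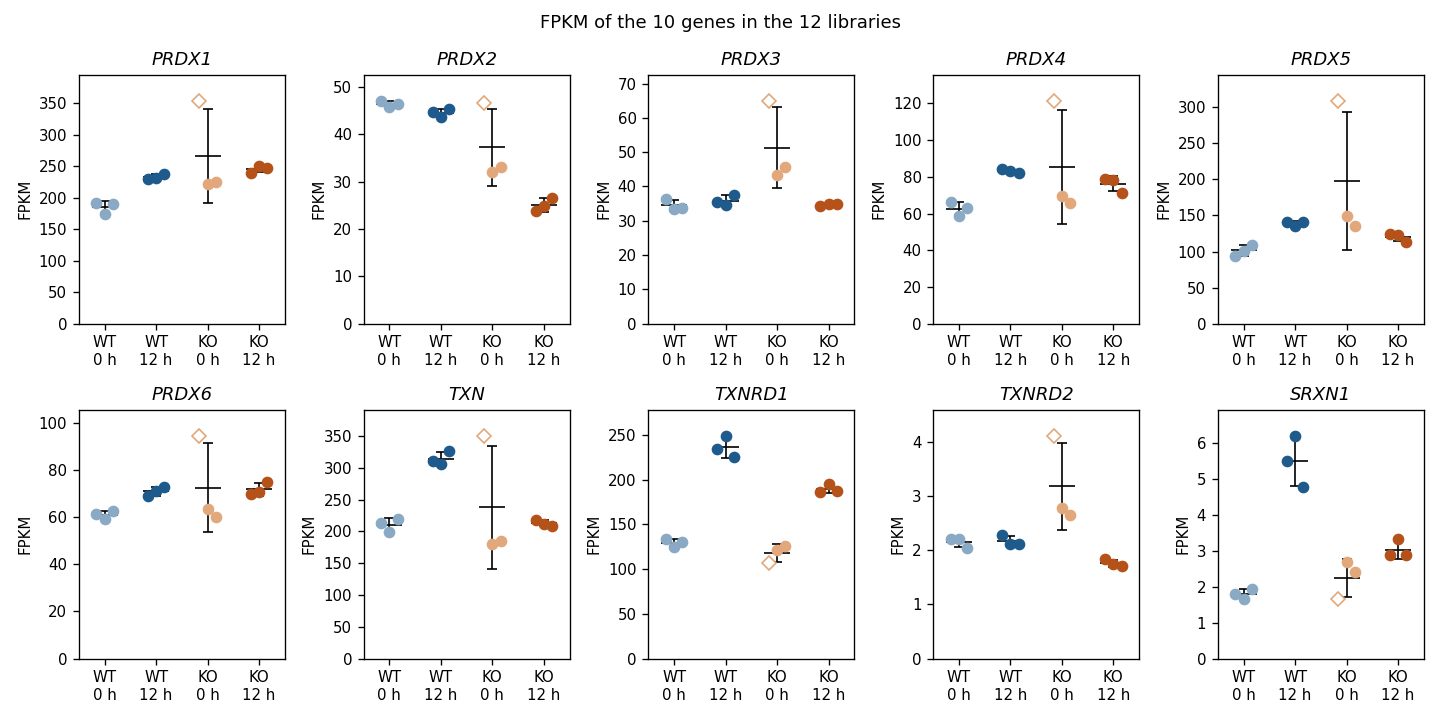
FPKM (y axis, from 0) of each gene in the 4 groups, with 1 point per library, a horizontal bar for the mean and whiskers for the SD (n = 3). The open diamond is untreated ATG7 KO replicate 1, which is the highest library of its group for 8 of the 10 genes. SRXN1 reached 4.78 to 6.19 FPKM in treated WT cells and 2.88 to 3.34 FPKM in treated ATG7 KO cells.

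The first question was how the system responded to H2O2 in WT cells. The repair gene SRXN1 rose about 3-fold (fold change 3.03), TXNRD1 and TXN rose 1.82-fold and 1.49-fold, and 4 of the 6 peroxiredoxins, PRDX1, PRDX4, PRDX5 and PRDX6, rose by smaller amounts. PRDX2, PRDX3 and TXNRD2 did not pass the test. Thus 7 of 10 genes were higher at an adjusted p under 0.01 in the quasi-likelihood test of edgeR, where 30.9% of all 15913 genes tested were higher, and none was lower, where 30.1% of all genes were. SRXN1 alone also had a log2 fold change beyond 1 with a mean FPKM above 1, the study's further thresholds for a differentially expressed gene, which 12.5% of all genes passed. The median log2 fold change was 0.37 for the 10 genes and -0.0053 for all genes tested.

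Among the cytosolic peroxiredoxins, PRDX1, the most abundant of the family, was at 191, 174 and 189 FPKM in the untreated WT libraries and at 229, 231 and 238 FPKM after H2O2. Every treated library lay above every untreated one, with a log2 fold change of 0.33 (SE 0.04, adjusted p = 4.04e-09). Here SE is the standard error, and adjusted p values are those of edgeR throughout. How many of all genes tested kept their groups apart in this way was not counted. Lack of overlap is thus a description only, here and below. PRDX2, the other typical cytosolic member, was at 46.9, 45.7 and 46.5 FPKM before and 44.8, 43.6 and 45.3 FPKM after. Its treated libraries lay just below the untreated ones, and the log2 fold change of -0.06 did not pass (95% interval -0.16 to 0.04, adjusted p = 0.268). PRDX6, which takes its reducing power from glutathione rather than thioredoxin, was at 61.4, 59.3 and 62.5 FPKM and then at 69.1, 71.1 and 72.6 FPKM. These groups did not overlap either, and the log2 fold change was 0.21 (SE 0.05, adjusted p = 7.88e-05).

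Among the peroxiredoxins of the organelles, the mitochondrial PRDX3 was at 36.4, 33.6 and 33.6 FPKM before H2O2 and at 35.4, 34.5 and 37.6 FPKM after. The groups overlapped and the log2 fold change was 0.05 (95% interval -0.05 to 0.15, adjusted p = 0.399). PRDX4, which removes peroxide made during protein folding in the endoplasmic reticulum, was at 66.1, 58.8 and 63.1 FPKM and then at 84.3, 83.0 and 82.3 FPKM. PRDX5 was at 93.6, 101 and 109 FPKM and then at 141, 135 and 141 FPKM. Both rose without overlap, PRDX4 by 0.40 on the log2 scale (SE 0.05, adjusted p = 3.23e-10) and PRDX5 by 0.45 (SE 0.05, adjusted p = 2.15e-10).

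TXN, the electron donor of the chain, was at 213, 198 and 219.6 FPKM in untreated WT cells and at 311, 305 and 326 FPKM after H2O2, a log2 fold change of 0.57 (SE 0.04, adjusted p = 6.09e-16). TXNRD1, which reduces it in the cytosol, was at 133, 125 and 130.3 FPKM and then at 235, 249 and 226 FPKM, a log2 fold change of 0.86 (SE 0.04, adjusted p = 6.95e-24). Neither gene's groups overlapped. TXNRD2 was at 2.20, 2.21 and 2.05 FPKM before and 2.27, 2.11 and 2.12 FPKM after, with overlap and a log2 fold change of 0.01 (95% interval -0.18 to 0.19, adjusted p = 0.964). SRXN1 rose from 1.81, 1.65 and 1.94 FPKM to 5.51, 6.19 and 4.78 FPKM. Every treated library lay far above every untreated one, with a log2 fold change of 1.60 (SE 0.13, adjusted p = 6.46e-15). With an offset for gene length the rise of PRDX6 fell to 0.06 and did not pass, those of PRDX1, PRDX4, PRDX5 and TXN shrank to 0.13, 0.23, 0.24 and 0.36 and still passed, and PRDX2 was lower (-0.23) and passed. In a fit that took its spread from all 12 libraries, 2 of the 7 genes passed, TXNRD1 and SRXN1.

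The promoters of TXNRD1 and SRXN1, the genes that rose most in WT cells, are shown for the core of the antioxidant response element, TGACNNNGC, searched on both strands in the 250 bases before each start site. RefSeq promoters on GRCh38.p14 were matched by symbol for 8 of the 10 genes and gave 12 promoters. PRDX1 and PRDX6 had no entry. The core stood in 2 of the 12, both of TXNRD1, and in 10.9% of all 35116 promoters in the table. It is written in capitals in both TXNRD1 sequences, 99 bases before the start in the first and 102 in the second, where it stands on the opposite strand (TGACAAAGC as read there). The SRXN1 window does not hold these letters, which says nothing of sites elsewhere. All lines read 5′ to 3′ on the strand of the gene.
TXNRD1, first promoter, plus strand, chr12:104215529-104215778: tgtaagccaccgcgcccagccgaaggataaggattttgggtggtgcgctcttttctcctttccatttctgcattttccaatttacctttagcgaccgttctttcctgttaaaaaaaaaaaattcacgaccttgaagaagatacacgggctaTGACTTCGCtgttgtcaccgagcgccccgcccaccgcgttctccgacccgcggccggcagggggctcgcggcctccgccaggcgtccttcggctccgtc
TXNRD1, second promoter, plus strand, chr12:104286782-104287031: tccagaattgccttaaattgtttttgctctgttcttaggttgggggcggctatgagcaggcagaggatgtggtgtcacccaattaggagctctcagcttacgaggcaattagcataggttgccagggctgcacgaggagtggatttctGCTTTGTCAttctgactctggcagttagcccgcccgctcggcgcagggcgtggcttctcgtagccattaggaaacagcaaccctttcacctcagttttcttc
SRXN1, minus strand, chr20:653201-653450: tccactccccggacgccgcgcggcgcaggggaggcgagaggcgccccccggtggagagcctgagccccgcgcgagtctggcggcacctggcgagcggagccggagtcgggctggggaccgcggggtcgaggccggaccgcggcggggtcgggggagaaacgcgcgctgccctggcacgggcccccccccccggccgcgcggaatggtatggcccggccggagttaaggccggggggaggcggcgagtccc

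In ATG7 KO cells the calls for the response to H2O2 depended on untreated replicate 1. With all libraries TXNRD1 rose in these cells too, TXNRD2 fell, and the other 8 genes did not pass. So 1 of 10 genes was higher, against 13.6% of all 15475 genes tested, and 1 was lower, against 12.4%. None was differentially expressed by all thresholds, which 11.2% of all genes were. The median log2 fold change was -0.16 for the 10 genes and -0.032 for all genes. Without untreated replicate 1, 5 genes that rose in WT cells were higher too (29.8% of all genes), namely TXNRD1, PRDX1, TXN, PRDX6 and PRDX4. Another 4 were lower (28.6% of all genes), and SRXN1 did not pass. The medians were then 0.14 for the 10 genes and -0.0030 for all genes, so that of the 10 genes turned in sign.

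TXNRD1 was at 107, 121 and 126 FPKM in untreated ATG7 KO libraries 1, 2 and 3 and at 186, 195 and 187 FPKM after H2O2. The groups did not overlap, with a log2 fold change of 0.67 (SE 0.11, adjusted p = 0.00268), and of 0.60 without untreated replicate 1 (adjusted p = 4.79e-57). TXN was at 349.6, 179 and 185 FPKM before and 218, 211 and 209 FPKM after. The treated libraries lay between untreated replicate 1 and the other two, so the log2 fold change was -0.16 with all libraries (adjusted p = 0.625) and 0.21 without replicate 1 (adjusted p = 7.62e-08). TXNRD2 fell from 4.11, 2.78 and 2.65 FPKM to 1.83, 1.75 and 1.71 FPKM, with no overlap. Its log2 fold change was -0.85 (SE 0.18, adjusted p = 0.008) and -0.63 without replicate 1 (adjusted p = 8.82e-10). SRXN1 was at 1.66, 2.68 and 2.40 FPKM and then at 2.88, 3.34 and 2.88 FPKM. The treated libraries were the higher ones but the log2 fold change of 0.42 did not pass (95% interval -0.05 to 0.89, adjusted p = 0.131), and neither did that of 0.24 without replicate 1 (adjusted p = 0.155). Without treated replicate 1, 2 or 3 in turn neither TXNRD1 (0.66 to 0.69) nor TXNRD2 (-0.88 to -0.82) passed, and without untreated replicate 2 or 3 TXNRD2 did not pass (-0.94 and -0.97).

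Of the peroxiredoxins, PRDX1 was at 353, 222 and 225 FPKM in untreated ATG7 KO cells and at 239.6, 251 and 247 FPKM after H2O2. Replicate 1 alone lay above the treated libraries, with a log2 fold change of -0.12 (adjusted p = 0.625) that became 0.12 without it (adjusted p = 5.66e-04). PRDX4, at 121, 69.4 and 65.6 FPKM and then 78.9, 78.3 and 71.4 FPKM, changed sign in the same way, from -0.17 (adjusted p = 0.583) to 0.16 (adjusted p = 3.70e-04). So did PRDX6, at 94.3, 63.3 and 59.9 FPKM and then 70.0, 70.5 and 74.9 FPKM, from -0.02 (adjusted p = 0.943) to 0.21 (adjusted p = 1.31e-06). PRDX2, PRDX3 and PRDX5 were below their untreated level in either case. PRDX2 went from 46.6, 32.0 and 33.1 FPKM to 23.8, 24.8 and 26.6 FPKM, a log2 fold change of -0.57 (adjusted p = 0.0219), and -0.39 without replicate 1 (adjusted p = 1.40e-10). PRDX3 went from 64.8, 43.4 and 45.7 FPKM to 34.2, 34.9 and 34.8 FPKM, at -0.57 (adjusted p = 0.0233) and -0.37 without replicate 1 (adjusted p = 1.86e-16). PRDX5 went from 308, 149 and 136 FPKM to 124, 123 and 113 FPKM, at -0.72 (adjusted p = 0.0925) and -0.26 without replicate 1 (adjusted p = 5.18e-08). For these 3 genes every treated library lay below every untreated one.

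**Figure D2:**
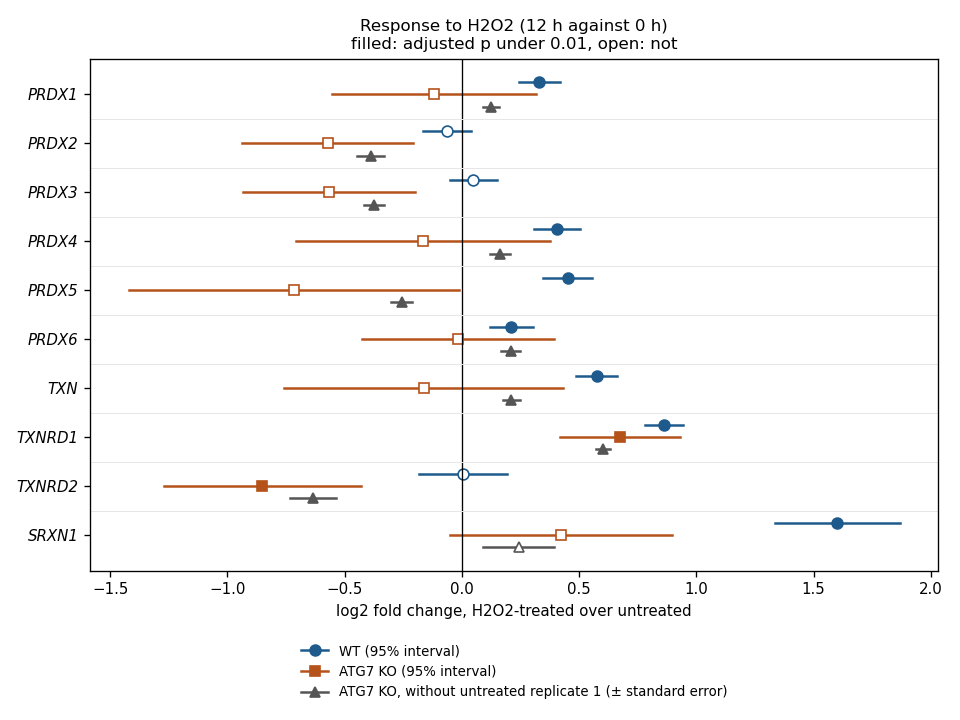
Log2 fold change of H2O2-treated over untreated cells (x axis) for each gene, in WT cells (circles), in ATG7 KO cells (squares) and in ATG7 KO cells without untreated replicate 1 (triangles). Lines are 95% intervals for the circles and squares and the standard error for the triangles, and symbols are filled where the adjusted p was under 0.01. SRXN1 is at 1.60 in WT and 0.42 in ATG7 KO cells, and PRDX5 lies above 0 in WT and below 0 in ATG7 KO cells.

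Whether the responses differed was tested as an interaction of genotype and treatment on all 12 libraries. SRXN1 rose by less in ATG7 KO cells (0.42) than in WT cells (1.60), while TXNRD2 did not pass in WT cells (0.01) and fell in ATG7 KO cells (-0.85). The difference was -1.18 for SRXN1 (SE 0.24, 95% interval -1.70 to -0.66, adjusted p = 0.00358) and -0.86 for TXNRD2 (SE 0.20, 95% interval -1.29 to -0.42, adjusted p = 0.0078). These were 2 of 10 genes, against 7.01% of all 16856 genes tested with a difference below 0 and 7.02% with one above 0, which no gene of the 10 had. All 10 differences were below 0, with a median of -0.59, against -0.033 over all genes. Leaving out untreated ATG7 KO replicate 1, the medians were -0.33 and -0.011. The other 8 ranged from -1.17 for PRDX5 (adjusted p = 0.0173) and -0.74 for TXN (adjusted p = 0.0558) to -0.19 for TXNRD1 (95% interval -0.43 to 0.06, adjusted p = 0.230). Untreated ATG7 KO replicate 1 was high for 8 of the genes, which lowers their ATG7 KO response.

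Without that library 9 of the 10 genes were called with a difference below 0, against 16.3% of all genes (17.8% above 0), and the exception was PRDX6 at 0.0099. The differences were then -1.35 for SRXN1 (adjusted p = 1.94e-08), -0.70 for PRDX5 (adjusted p = 9.82e-14), -0.63 for TXNRD2 (adjusted p = 6.51e-05), -0.41 for PRDX3, -0.35 for TXN, -0.31 for PRDX2, -0.25 for TXNRD1, -0.23 for PRDX4 and -0.19 for PRDX1. SRXN1 and TXNRD1, for which that library was low, were the genes whose difference grew in size without it. When other libraries were left out in turn, SRXN1 did not pass without untreated WT replicate 1 or 2, treated WT replicate 1 or 2, or treated ATG7 KO replicate 1 or 3, with differences of -1.17 to -1.08. TXNRD2 did not pass without any single WT or treated ATG7 KO library, with differences of -0.88 to -0.81. With the offset for gene length SRXN1 was at -0.96 and did not pass.

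The comparison of ATG7 KO with WT under H2O2 asked how the KO and WT cells differed once exposed. In ATG7 KO cells 7 of the 10 genes were lower, among them the repair gene SRXN1 (1.82-fold), PRDX2 (1.78-fold), TXN (1.48-fold) and TXNRD1 (1.25-fold). PRDX4, PRDX5 and TXNRD2 were lower by smaller amounts, and PRDX1, PRDX3 and PRDX6 did not pass. Of all 15909 genes tested, 27.9% were lower and 27.7% higher, and none of the 10 was higher. None passed all thresholds for differential expression, which 7.46% of all genes did. The median log2 fold change was -0.26 for the 10 genes and -0.0022 for all genes. This comparison does not use the untreated libraries.

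SRXN1 was at 3.03 ± 0.264 FPKM (SD, n = 3) in treated ATG7 KO cells and 5.49 ± 0.702 FPKM in treated WT cells, with a log2 fold change of -0.86 (SE 0.12, adjusted p = 1.89e-07). PRDX2 was at 25.1 ± 1.42 FPKM against 44.5 ± 0.876 FPKM, a log2 fold change of -0.84 (SE 0.05, adjusted p = 3.84e-15), so the gap between the genotypes was about as large as that of SRXN1 at a much higher level. TXN was at 213 ± 4.51 FPKM against 314 ± 10.9 FPKM, a log2 fold change of -0.57 (SE 0.04, adjusted p = 9.07e-15). In other words, TXN in treated ATG7 KO cells stood near its level in untreated WT cells. TXNRD1 was at 189 ± 4.79 FPKM against 236 ± 11.6 FPKM, a log2 fold change of -0.33 (SE 0.03, adjusted p = 3.45e-10). No ATG7 KO library of these 4 genes reached the lowest WT library. PRDX2, TXNRD1 and SRXN1 passed in all 10 other settings and in all 6 fits without 1 library, and TXN in all but the fit of all 12 libraries (-0.56, adjusted p = 0.0307).

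PRDX5 was at 120.2 ± 5.91 FPKM in treated ATG7 KO cells and 139 ± 3.64 FPKM in treated WT cells, a log2 fold change of -0.22 (SE 0.04, adjusted p = 8.84e-05). PRDX4 was at 76.2 ± 4.16 FPKM against 83.2 ± 1.02 FPKM (-0.14, SE 0.04, adjusted p = 0.00605), and TXNRD2 at 1.76 ± 0.0645 FPKM against 2.17 ± 0.0929 FPKM (-0.30, SE 0.09, adjusted p = 0.00555). The groups of these genes did not overlap, but the calls of PRDX4 and TXNRD2 were less firm. PRDX4 did not pass without treated ATG7 KO replicate 2 (-0.14) or 3 (-0.08) or treated WT replicate 1 (-0.13), and TXNRD2 without any 1 treated ATG7 KO replicate (-0.32 to -0.27) or treated WT replicate 1 (-0.27). With DESeq2 neither passed. PRDX5 passed in all 6 fits without 1 library and in 8 of the 10 other settings. The exceptions for PRDX5 were the fit of all 12 libraries (-0.21, adjusted p = 0.477) and the gene length offset (-0.06, adjusted p = 0.213).

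PRDX1 was at 246 ± 5.74 FPKM in treated ATG7 KO cells and 233 ± 4.6 FPKM in treated WT cells, PRDX3 at 34.6 ± 0.374 FPKM against 35.8 ± 1.60 FPKM, and PRDX6 at 71.8 ± 2.73 FPKM against 70.9 ± 1.77 FPKM. Their log2 fold changes were 0.07 (95% interval 5.28e-05 to 0.14, adjusted p = 0.0741), -0.06 (95% interval -0.14 to 0.03, adjusted p = 0.268) and 0.01 (95% interval -0.07 to 0.09, adjusted p = 0.833). With the offset for gene length PRDX1 (0.26, adjusted p = 9.72e-08) and PRDX6 (0.17, adjusted p = 6.49e-04) were higher in ATG7 KO cells, and PRDX4 (0.04) and PRDX5 (-0.06) no longer passed. PRDX5, TXN, PRDX1, PRDX4, PRDX2 and PRDX6 are the 6 shortest genes of the 10 in the table (893 to 2367 bases), and the part of transcript length in their values was not tested.

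**Figure D3:**
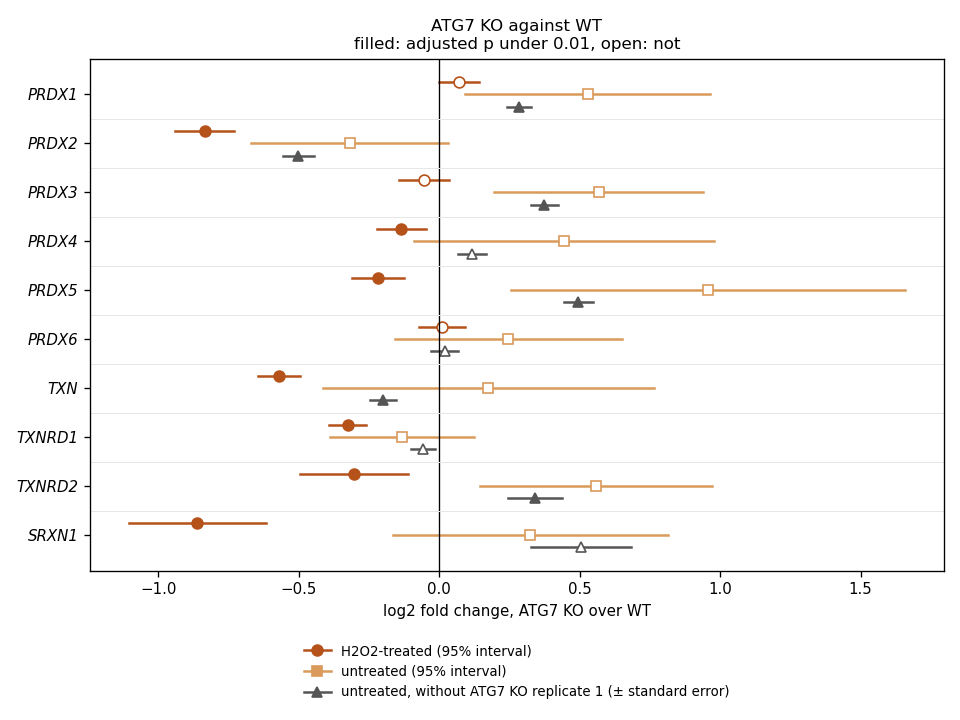
Log2 fold change of ATG7 KO over WT (x axis) for each gene in H2O2-treated cells (circles), in untreated cells (squares) and in untreated cells without ATG7 KO replicate 1 (triangles). Lines are 95% intervals for the circles and squares and the standard error for the triangles, and symbols are filled where the adjusted p was under 0.01. SRXN1 and PRDX2 are lowest in treated cells, at -0.86 and -0.84, and no square is filled.

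In untreated cells no gene of the 10 passed between ATG7 KO and WT, where 4.42% of all 15357 genes tested were higher, 3.28% lower and 3.5% differentially expressed. The median log2 fold change was 0.38 for the 10 genes and 0.0055 for all genes, and 0.20 and -0.0049 without ATG7 KO replicate 1. With edgeR 4 of them had an unadjusted p under 0.05, and DESeq2 called 1, PRDX5. The largest log2 fold changes were 0.96 for PRDX5 (95% interval 0.25 to 1.66, adjusted p = 0.067), 0.57 for PRDX3 (0.20 to 0.94, adjusted p = 0.0466), 0.56 for TXNRD2 (0.15 to 0.97, adjusted p = 0.0678) and 0.53 for PRDX1 (0.09 to 0.96, adjusted p = 0.0939). For these 4 genes every ATG7 KO library lay above every WT library. PRDX4, SRXN1, PRDX6 and TXN were at 0.44, 0.32, 0.24 and 0.17, and TXNRD1 and PRDX2 at -0.13 and -0.32, all with intervals that held 0.

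Without ATG7 KO replicate 1, 4 genes were higher in untreated ATG7 KO cells, against 18.2% of all genes, and 2 were lower, against 17.9%. The higher ones were PRDX5 (log2 fold change 0.50, adjusted p = 6.07e-17), PRDX3 (0.37, adjusted p = 2.50e-12), TXNRD2 (0.34, adjusted p = 0.00158) and PRDX1 (0.28, adjusted p = 3.24e-09). The lower ones were PRDX2 (-0.50, adjusted p = 4.08e-16) and TXN (-0.20, adjusted p = 7.56e-05). SRXN1 stood at 0.50 without passing (adjusted p = 0.0126), the opposite direction to its value under H2O2. PRDX2 was below WT in both conditions, at 32.6 ± 0.756 FPKM (SD, n = 2) against 46.4 ± 0.633 FPKM without H2O2. The untreated and treated comparisons share no library.

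**Figure D4:**
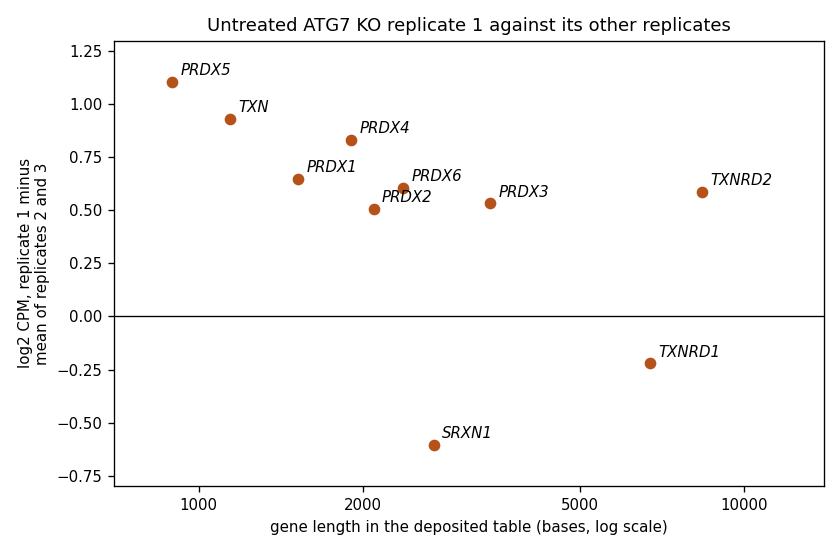
Deviation of untreated ATG7 KO replicate 1 from its other replicates (y axis, log2 CPM of replicate 1 minus the mean of replicates 2 and 3) against the gene length in the deposited table (x axis, log scale), with 1 point per gene. PRDX5 and TXN, the shortest genes, are highest at 1.10 and 0.93, and TXNRD1 and SRXN1 are below 0 at -0.22 and -0.61. TXNRD2, the longest gene, is above 0 at 0.59.

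The shares of the 6 peroxiredoxins in their summed FPKM were compared as a description. In untreated WT cells PRDX1 made up 37.6 ± 0.883% (SD, n = 3) of the sum, PRDX5 20.7 ± 1.54%, PRDX4 12.8 ± 0.502%, PRDX6 12.5 ± 0.0857%, PRDX2 9.46 ± 0.229% and PRDX3 7.04 ± 0.345%. After H2O2 in WT cells the share of PRDX5 was 22.9 ± 0.410% and that of PRDX2 7.35 ± 0.0657%, while the sum rose from 491 ± 16.5 to 606 ± 9.66 FPKM. In treated ATG7 KO cells PRDX1 made up 42.8 ± 0.769% and PRDX2 4.37 ± 0.275%, and the sum was 574 ± 7.62 FPKM. The PRDX2 share was thus lower in every ATG7 KO library, treated or not, than in any WT library, with 5.86% the highest value in ATG7 KO and 7.28% the lowest in WT. Untreated ATG7 KO replicate 1 had a sum of 987 FPKM, against 579 and 565 FPKM in its other replicates, and PRDX5 took 31.2% of it.

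**Figure D5:**
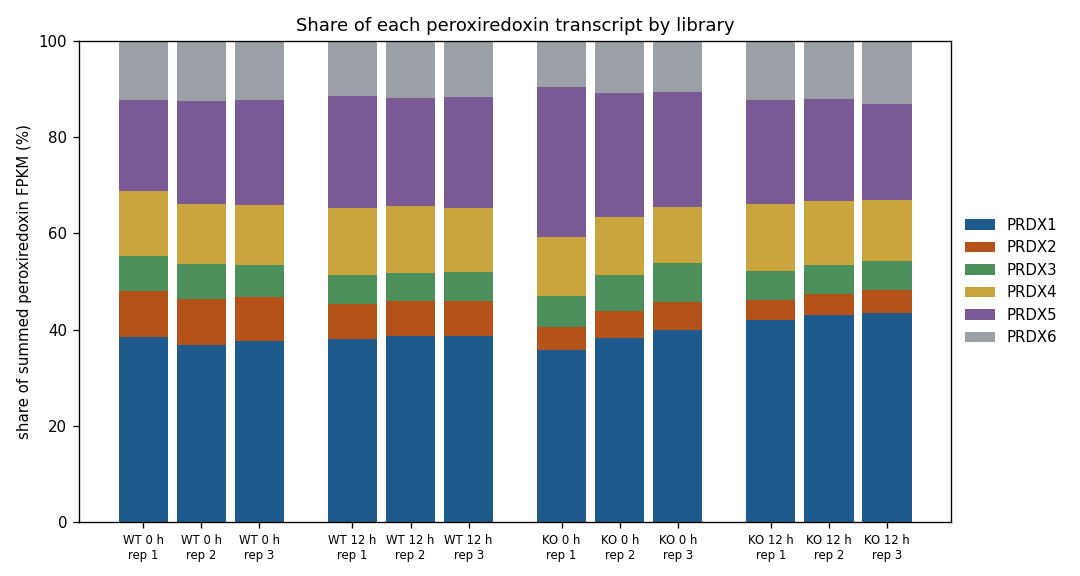
Share of each peroxiredoxin in the summed FPKM of the 6 genes (y axis, percent) in the 12 libraries, stacked to 100%. The PRDX2 segment is 7.28% or more in every WT library and 5.86% or less in every ATG7 KO library.

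Ratios within the system were also taken per library. SRXN1 amounted to 3.65, 3.5 and 3.85 FPKM per 1000 FPKM of peroxiredoxin in untreated WT cells and to 9.12, 10.3 and 7.75 after H2O2. In ATG7 KO cells it was 1.68, 4.63 and 4.25 before and 5.04, 5.73 and 5.08 after. SRXN1 was thus higher per summed peroxiredoxin FPKM in every treated WT library than in any treated ATG7 KO library. The sum held all 6 peroxiredoxins, whether or not sulfiredoxin repairs their proteins. TXNRD1 per TXN was 0.755, 0.814 and 0.691 in treated WT libraries and 0.855, 0.923 and 0.895 in treated ATG7 KO libraries, the opposite order. TXNIP, the thioredoxin-binding inhibitor, stood at 0.110 to 0.121 per TXN in untreated WT cells, 0.0435 to 0.0530 in treated WT cells, 0.0358 to 0.0598 in untreated ATG7 KO cells and 0.0135 to 0.0206 in treated ATG7 KO cells.

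The 20 tested genes on either side of each gene were described in the comparison of ATG7 KO with WT, on GRCh38 as in the deposited table. Around PRDX2 (ENSG00000167815), on chromosome 19 from 12796820 to 12801859, 36 of 40 neighbours were below 0 in treated cells, with a median log2 fold change of -0.60, and 30 were called lower. In untreated cells 35 of 40 were below 0 with a median of -0.44, and 38 of 40 without replicate 1. PRDX2, at -0.84 in treated cells, had the sign of most of its neighbours. TXN (ENSG00000136810), on chromosome 9 from 110243811 to 110256640, had 35 of 40 neighbours below 0 in untreated cells (median -0.42, and 32 of 40 without replicate 1) but 22 above 0 in treated cells, where TXN itself was lower. Of the 40 TXN neighbours in treated cells, 11 were called higher and 15 lower. PRDX5 (ENSG00000126432), on chromosome 11 from 64318088 to 64321811, had 30 of 40 neighbours above 0 in untreated cells without replicate 1, of which 23 were called higher, and 17 above 0 in treated cells. For SRXN1 (ENSG00000271303, chromosome 20, 646615 to 653370), which had 29 neighbours, 17 were below 0 in treated cells with a median of -0.04. Of the 29, 12 were called lower, as was SRXN1, and 3 higher. Among all genes tested between treated cells, 27.9% were lower and 27.7% higher. For TXNRD1 (ENSG00000198431, chromosome 12, 104215779 to 104350305) and TXNRD2 (ENSG00000184470, chromosome 22, 19875517 to 19941992) 20 neighbours were above and 20 below 0 in treated cells. Around PRDX1 (ENSG00000117450, chromosome 1, 45511036 to 45523047), PRDX3 (ENSG00000165672, chromosome 10, 119167703 to 119178833), PRDX4 (ENSG00000123131, chromosome X, 23664262 to 23686399) and PRDX6 (ENSG00000117592, chromosome 1, 173477266 to 173488807), 23 to 26 of 40 neighbours were above 0 in treated cells. The part of chromosomal position in these values was not tested.

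Other genes of the same chemistry were taken from 3 lists, whose medians can be set beside the medians over all genes given above, which lay between -0.033 and 0.0055. The shares of all genes called stand beside their counts in the same way. They were 30.9% higher and 30.1% lower in the WT response, 13.6% and 12.4% in the ATG7 KO response, 27.7% and 27.9% between treated cells, 4.42% and 3.28% between untreated cells, and 7.02% and 7.01% in the difference. Without untreated ATG7 KO replicate 1 they were 29.8% and 28.6% in the ATG7 KO response, 18.2% and 17.9% between untreated cells, and 17.8% and 16.3% in the difference. Of 13 other thioredoxin and glutaredoxin genes, 7 rose and 2 fell in WT cells with H2O2 (median log2 fold change 0.28), and 2 rose and 3 fell in ATG7 KO cells (median -0.35). Between treated ATG7 KO and WT cells 2 were higher and 7 lower (median -0.30), between untreated cells 1 was higher and 2 lower (median 0.29), and in the difference of the responses 1 was higher and 2 lower (median -0.23). Without untreated ATG7 KO replicate 1 the counts were 5 higher and 3 lower for the ATG7 KO response, 3 and 3 for the untreated comparison, and 2 and 4 for the difference, with medians of -0.03, 0.14 and -0.06. TXNIP, which binds and blocks thioredoxin, was at 13.3 to 17.3 FPKM in treated WT and 2.93 to 4.35 FPKM in treated ATG7 KO libraries, a log2 fold change of -1.97 (SE 0.16, adjusted p = 2.14e-05). It fell with H2O2 in both genotypes, by 0.73 in WT cells (adjusted p = 8.36e-08) and by 1.55 in ATG7 KO cells (adjusted p = 6.14e-04), and was lower in untreated ATG7 KO cells (-1.15, adjusted p = 0.00102).

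GSR, which reduces glutathione with NADPH, was at 29.2 to 30.7 FPKM in treated WT and 48.3 to 51.1 FPKM in treated ATG7 KO libraries. It was thus higher in ATG7 KO cells (0.72, adjusted p = 4.11e-16), the opposite of TXNRD1, and it rose with H2O2 by 0.74 in WT and 1.11 in ATG7 KO cells. TMX1, a thioredoxin-like protein of the endoplasmic reticulum membrane, was higher in ATG7 KO cells both with H2O2 (0.93, adjusted p = 1.49e-19) and without (1.0, adjusted p = 0.0039). TXNDC12, another thioredoxin-fold protein of that compartment, was at 3.75 to 5.02 FPKM in treated WT and 1.89 to 2.08 FPKM in treated ATG7 KO libraries (-1.12, adjusted p = 9.40e-10). Its response differed between genotypes by -1.32 (adjusted p = 2.12e-04). GLRX, the cytosolic glutaredoxin, was lower in treated ATG7 KO cells (-0.61, adjusted p = 1.88e-04) and fell with H2O2 there (-1.07, adjusted p = 0.00518) but not in WT cells (-0.01, adjusted p = 0.924), a difference of -1.05 (adjusted p = 0.00548). NXN, or nucleoredoxin, went the other way. It was at 5.48 to 6.34 FPKM in untreated WT and 1.88 to 2.06 FPKM in untreated ATG7 KO libraries (-1.62, adjusted p = 2.25e-04), and rose by 1.45 in ATG7 KO cells and 0.50 in WT cells, a difference of 0.95 (adjusted p = 1.66e-04). Without untreated ATG7 KO replicate 1 these genes kept the calls given here. The untreated comparison was then at -1.24 for TXNIP, 0.84 for TMX1 and -1.60 for NXN, the ATG7 KO response at -1.46 for TXNIP, 1.21 for GSR, -0.89 for GLRX and 1.43 for NXN, and the difference at -1.26 for TXNDC12, -0.86 for GLRX and 0.94 for NXN.

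The list of sestrins, methionine sulfoxide reductases and thioredoxin clients held 12 genes, of which 11 were tested. With H2O2 4 rose and 2 fell in WT cells (median -0.13) and 3 rose and 1 fell in ATG7 KO cells (median -0.06). Between treated ATG7 KO and WT cells 4 were higher and 2 lower (median 0.12), and none passed between untreated cells (median 0.08) with edgeR, where 3 had an unadjusted p under 0.05 and DESeq2 called 2. In the difference of the responses 1 was higher and none lower (median -0.03). Without untreated ATG7 KO replicate 1 the counts were 4 higher and 2 lower for the ATG7 KO response (median -0.02), 2 and 1 for the untreated comparison (median -0.0089) and 3 and 2 for the difference (median 0.11). The sestrins are stress proteins that have been linked to peroxiredoxin recovery. SESN1 went from 2.18 to 2.24 FPKM in untreated WT libraries to 17.9 to 19.3 FPKM after H2O2, a log2 fold change of 3.05 (adjusted p = 2.77e-36), and one of 3.04 in ATG7 KO cells (adjusted p = 1.71e-05). SESN2 rose by 2.76 (adjusted p = 1.75e-06) and 2.72 (adjusted p = 2.54e-05). The difference between genotypes was -0.0062 for SESN1 (95% interval -0.29 to 0.28) and -0.05 for SESN2 (95% interval -0.39 to 0.30), beside -1.18 for SRXN1. With that library left out the ATG7 KO responses were 3.15 and 2.60, and the differences 0.11 and -0.15, neither of which passed. RRM2B, a ribonucleotide reductase subunit, rose by 1.86 in WT and 2.79 in ATG7 KO cells, a difference of 0.93 (adjusted p = 8.10e-05), and of 0.91 without that library (adjusted p = 8.34e-21). MAP3K5, the kinase ASK1 that thioredoxin holds inactive, was at 0.478 to 0.669 FPKM in treated WT and 1.43 to 1.64 FPKM in treated ATG7 KO libraries (1.34, adjusted p = 2.17e-08). In untreated cells it was at 1.01, which did not pass (adjusted p = 0.0253), and at 1.13 without ATG7 KO replicate 1, which passed (adjusted p = 1.8e-08). Its difference of the responses was 0.33 (adjusted p = 0.394). These values rest on 39 to 154 reads per library.

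Because the thioredoxin reductases contain selenocysteine, 7 genes of selenocysteine insertion were included. In WT cells 2 rose and 3 fell with H2O2 (median 0.0018), and in ATG7 KO cells none rose and 2 fell (median -0.04). Between treated ATG7 KO and WT cells 2 were higher and 2 lower (median 0.06), and none passed between untreated cells (median -0.05) or in the difference of the responses (median 0.12) with edgeR. An unadjusted p under 0.05 was reached by 2 and 4 of them, and DESeq2 called 1 and 0. Without untreated ATG7 KO replicate 1 the counts were 1 higher and 2 lower for the ATG7 KO response (median 0.16), 1 and 2 for the untreated comparison (median -0.10) and 2 and 1 for the difference (median 0.21). EEFSEC, the elongation factor that carries selenocysteine to the ribosome, was at 3.29 to 3.39 FPKM in treated WT and 1.5 to 1.83 FPKM in treated ATG7 KO libraries (-1.01, adjusted p = 6.53e-07). It fell with H2O2 by 0.70 in WT and by 1.28 in ATG7 KO cells, or by 1.18 without untreated replicate 1.

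The genes most like SRXN1 and TXNRD1 were sought by the Pearson r of log2 CPM over the 12 libraries, among 10939 genes with a mean FPKM above 1 in every group. As the libraries share genotype and treatment, these values are descriptions. For SRXN1 they were SLC35C1 (r = 0.986), MAFG (0.980), which encodes a small MAF partner of Nrf2, CCDC86 (0.978), ZNF316 (0.977) and SDE2 (0.973). MAFG was at 37.0 to 43.9 FPKM in treated WT libraries and 30.3 to 32.0 FPKM in treated ATG7 KO libraries, and its response differed by -0.62 without passing (adjusted p = 0.0104), and by -0.75 without untreated ATG7 KO replicate 1, which passed (adjusted p = 6.58e-15). For TXNRD1 they were the transcription factor gene ETS1 (r = 0.997), the cytokine signalling suppressor SOCS3 (0.996), DDX21 (0.995), SOCS4 (0.994) and YWHAG (0.993).

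Of 17 annotated pseudogenes of these genes 9 had no read in any library, and the highest had 15 reads in a library and never more than 0.827% of its parent. Genes overlap 5 of the 10 in the table. PRDX1 overlaps MMACHC, with 89 to 283 reads against 4859 to 8851, on the opposite strand. PRDX2 lies within the span of HOOK2 on the same strand, with 134 to 391 reads, and HOOK2 was lower in treated ATG7 KO cells too (-0.74, adjusted p = 1.45e-06). RPL18AP3, a ribosomal protein pseudogene inside TXNRD1, had 730 to 1210 reads against 11825 to 26691. Gene AL121758.1, which covers nearly all of SRXN1, had 0 to 5 reads. How reads in shared stretches were divided is not given in the sources used here.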

How the data were processed

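Total RNA of 12 HLE-B3 libraries (NEBNext Ultra kit) was sequenced. The authors deposited raw counts, whole numbers of reads on each gene, and FPKM values made from them by gene length and library size. The submitters' processing notes name HISAT2 2.0.5, featureCounts 1.5.0-p3 and GRCh38. The strand setting and the handling of reads that map to several places are not given in the sources used here. Samples were grouped by their titles.

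Counts were tested with edgeR 4.0.16 in R 4.3.3 (filterByExpr with a minimum count of 10, TMM scaling, robust quasi-likelihood fit, Benjamini-Hochberg adjustment over all genes tested). The 6 libraries compared were fitted alone for each pair of groups, and the difference of the responses all 12. A gene was called at an adjusted p under 0.01. Differential expression also needed a log2 fold change beyond 1 and a mean FPKM above 1 in at least 1 group. The step was tested on simulated counts. The 10 genes, the lists and the rule for named genes (all 10 genes, list genes differentially expressed in any comparison, the 5 genes most like SRXN1 and TXNRD1, ATG7, pseudogenes and overlapping genes) were chosen with earlier results of these data known. One gene that this rule would name is not reported here.

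Alternatives were DESeq2 1.42.0, RLE and upper quartile scaling, no filter or at least 10 counts in every library, a block for the replicate number, fits without 1 library each, limma 3.58.1 on log2 of FPKM plus 1 or 0.1, a gene length offset (lowess, span 0.3) and all 12 libraries in 1 fit. The deviations from the group mean of libraries with the same number correlated between -0.043 and 0.098, and the main fits did not pair samples by number. Such values cannot exclude that libraries of the same number shared a culture or batch. Library totals were within 15602183 to 17659496 reads, and with 3 replicates per group the spread between libraries sets the precision except for SRXN1, where counting error adds to it.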

Additional observations from a re-analysis of the deposited data

Results flagged for a closer look

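The response to H2O2 differed between ATG7 KO and WT cells, by the interaction term of edgeR's quasi-likelihood test, for SRXN1 (-1.18 on the log2 scale, adjusted p = 0.00358) and for TXNRD2 (-0.86, adjusted p = 0.0078). In SRXN1 the WT response was upward (1.60) and the ATG7 KO response smaller (0.42), while in TXNRD2 the WT response was near 0 (0.01) and the ATG7 KO response downward (-0.85). With 3 libraries in each group, no test for a single outlying library was made.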

How the results depend on the processing

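The replicate block changed no count of genes called: 7 in treated ATG7 KO against WT cells, 0 in untreated cells, 7 in the WT response, 2 in the ATG7 KO response and 2 in the difference of the responses. It turned the ATG7 KO response of PRDX6 to 0.0109. The fit of all 12 libraries called 3, 3, 2 and 4 genes in the first 4 of these. DESeq2 called 5 genes in treated ATG7 KO against WT cells, 1 in untreated cells, 4 in the ATG7 KO response and 4 in the difference. No filter gave 5 in treated ATG7 KO against WT cells and 6 for the difference. Both limma fits gave 5 in treated ATG7 KO against WT cells, 1 for the ATG7 KO response and 1 for the difference. The length offset gave 1 in untreated cells and 1 for the difference. Without 1 library in turn the counts were 0 to 6 in untreated cells, 0 to 9 in the ATG7 KO response and 0 to 9 in the difference, with the highest each time without untreated ATG7 KO replicate 1. The share of all genes called was counted for the main fits and without that library, but not for the other settings.

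Signs turned for small values. Under the length offset PRDX3 (0.0215) and PRDX4 (0.0426) turned in treated ATG7 KO against WT cells, TXN (-0.0333) in untreated cells, PRDX1 (0.0634), PRDX4 (0.0271), PRDX6 (0.14) and TXN (0.0081) in the ATG7 KO response, and PRDX6 (0.0651) in the difference. PRDX6 in treated cells turned with upper quartile scaling (-0.031), with 10 counts in every library (-0.013) and without 1 library (-0.0123 to 0.039). TXNRD2 in the WT response turned with upper quartile scaling (-0.0053), without a filter (-0.0347) and without 1 library (-0.0414 to 0.0184). PRDX6 in the ATG7 KO response turned in the limma fits (0.0147 and 0.0153). Without 1 library, the ranges that held 0 were -0.20 to 0.34 for TXN in untreated cells, -0.24 to 0.12, -0.32 to 0.16, -0.14 to 0.21 and -0.34 to 0.21 for PRDX1, PRDX4, PRDX6 and TXN in the ATG7 KO response, and -0.34 to 0.0099 for PRDX6 in the difference. The causes were not tested. SRXN1, with 74 to 257 reads per library, is the gene that depth limits most.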
